A study of Homo sapiens with 12 samples.

Results

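A set of 10 genes was followed that ERK signalling switches on and whose products, for the most part, then restrain or relay it. They are the MAP kinase phosphatase genes DUSP4, DUSP5 and DUSP6, the Sprouty genes SPRY2 and SPRY4, the related SPRED1 and SPRED2, the ETS transcription factor genes ETV4 and ETV5, and PHLDA1. They were chosen by symbol as known readouts of the pathway, with earlier results of these data known. All 10 were found among the 26814 genes listed in both deposited tables (33331 in either table). Polyadenylated RNA of SW480, an established line from a human colorectal adenocarcinoma, had been sequenced in 12 libraries, 3 for each of 4 groups. Both groups of the knockout table came from 1 ALDH1B1 knockout clone, which carried either an EGFP construct, a fluorescent control protein, or an ALDH1B1 construct. Both groups of the inhibitor table came from the parental line, kept for 24 h with the solvent DMSO or with 2 µM of an ALDH1B1-selective inhibitor. ALDH1B1 encodes a mitochondrial aldehyde dehydrogenase, and the study asked which transcripts depend on it.

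Receptor tyrosine kinases pass a signal through RAS, RAF and MEK to the kinases ERK1 and ERK2, which phosphorylate cytoplasmic and nuclear targets. Among the genes that ERK then induces are its own brakes. DUSP proteins remove the activating phosphates from MAP kinases, Sprouty proteins interfere between receptor and RAF, and SPRED proteins bring neurofibromin to RAS. ETV4 and ETV5 are transcription factors that carry the signal on to further genes. The mRNA levels of such genes are often read as a proxy of ERK output in colorectal cancer cells, but kinase activity itself was not measured here.

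Each library held between 32617089 and 39018926 counted reads, and each of the 10 genes had between 995 and 38871 reads per library, so that counting error alone was at most 3.17% of a value. ALDH1B1 followed the labels, as the clone that carried the EGFP construct had 18.4 ± 0.44 CPM (scaled read counts relative to library size; SD, n = 3), the clone that carried ALDH1B1 had 100.8 ± 3.2 CPM, and the parental line had 49.5 ± 3.8 CPM with DMSO and 50.4 ± 0.53 CPM with the inhibitor. No replicate pair agreed within sampling noise (chi-square per degree of freedom of 3.00 to 14.4). EGFP replicate 3 and DMSO replicate 2 stood furthest from the others of their groups. The series description gives biological replicates, so p-values measure the spread between cultures of 1 clone and 1 line. Epithelial keratin mRNA was abundant in all 4 groups (KRT8 at group means of 3594 to 4402 CPM), and of 6 blood and endothelial markers listed in both tables, none exceeded a group mean of 1.51 CPM. Several other epithelial markers were much lower in the clone, as EPCAM at 134.7 CPM with ALDH1B1 against 767.1 CPM with DMSO, while CDX2 was higher there.

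Within each table, the order of the 10 genes by group mean level per transcript length was identical in both of its groups, while it differed between the parental line and the clone. In the parental line with DMSO the highest was PHLDA1, which encodes a pleckstrin homology-like domain protein, at 115 RPKM (CPM per kilobase of the gene's exons; group mean, n = 3). ETV4 followed at 72.3 RPKM and DUSP4 at 32.7 RPKM. Next came SPRED2, DUSP6 and ETV5, at 24.0, 21.0 and 18.5 RPKM, then SPRY2, SPRY4 and DUSP5, at 14.4, 13.9 and 11.7 RPKM, and last SPRED1 at 5.85 RPKM. The order of SPRY2 and SPRY4 is not resolved there, as their SDs were 1.95 and 0.37 RPKM (n = 3). In the clone with ALDH1B1 the order began with ETV4 at 84.4 RPKM, DUSP6 at 75.3 RPKM and ETV5 at 49.7 RPKM. PHLDA1 was seventh there, at 10.9 RPKM, and DUSP4 ninth, at 6.43 RPKM. SPRED1 was the lowest of the 10 in all 4 groups. The summed level of the 10 genes was 329.2 ± 3.1 RPKM with DMSO, 348.8 ± 3.8 with the inhibitor, 299.6 ± 6.0 in the clone with ALDH1B1 and 284.4 ± 6.7 with EGFP (SD, n = 3 each). PHLDA1 made up 34.9% ± 0.44 of that sum with DMSO and 3.63% ± 0.10 in the clone with ALDH1B1, whereas DUSP6 made up 6.39% ± 0.11 and 25.1% ± 0.61 (SD, n = 3 each).

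**Figure D1:**
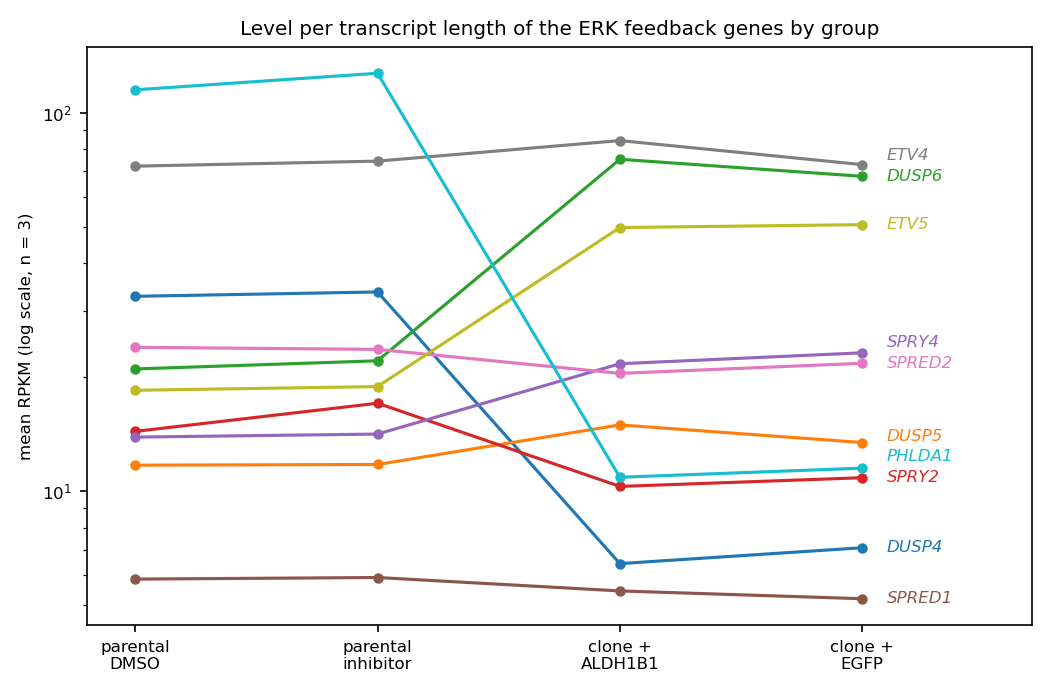
Mean level per transcript length (RPKM, log scale, n = 3) of each of the 10 genes in the 4 groups; lines join the group means of 1 gene. The lines run nearly level within the parental pair and within the clone pair, and PHLDA1 falls from 115 RPKM with DMSO to 10.9 RPKM in the clone with ALDH1B1 while DUSP6 goes from 21.0 to 75.3 RPKM.

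In the knockout clone the comparison of EGFP with ALDH1B1 asked whether these transcripts differ between low and re-expressed ALDH1B1. ETV4 fell in the clone with EGFP, and no other member passed, while 6 of 10 had an unadjusted p below 0.05 (5395 of the 17404 genes tested did). ALDH1B1 reads were not absent with EGFP, as given above, and with the ALDH1B1 construct they stood 2.035-fold above parental DMSO. Against parental DMSO, ETV4 differed by 0.01 on the log2 scale with EGFP and by 0.22 with ALDH1B1, as given below. With the ALDH1B1 construct the ETV4 libraries stood at 320, 300.2 and 293 CPM, and with EGFP at 265, 282 and 241 CPM. All 3 EGFP libraries were lower, and the groups did not overlap. The log2 fold change was -0.20 (SE 0.06), or 1.15-fold lower, and the p of edgeR's quasi-likelihood test was 0.023 after Benjamini-Hochberg adjustment over all genes tested, as for every adjusted p given for edgeR. ETV4 (ENSG00000175832) lies on hg38 chromosome 17, from 43527844 to 43579620 on the minus strand. In bulk RNA, fewer cells that express a gene and less RNA per cell cannot be told apart. The call rested on single libraries. It ended without ALDH1B1 replicate 1, at -0.17 (edgeR adjusted p = 0.12), without ALDH1B1 replicate 2, at -0.21 (adjusted p = 0.073), and without EGFP replicate 1, at -0.21 (adjusted p = 0.060), and over all 11 alternatives the adjusted p ran from 2.3e-04 to 0.12. One member of 10 called lower compares with 9.22% of the 17404 genes tested that were called lower, 8.36% called higher and 17.6% called in either direction, so the share of members is near that of all genes.

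DUSP6, which encodes a phosphatase selective for ERK, did not pass the threshold. Its level was 345.5, 360.0 and 341.6 CPM with ALDH1B1 and 291, 309 and 344 CPM with EGFP. EGFP replicate 3 lay inside the range of the ALDH1B1 libraries and the other EGFP libraries lay below it. The log2 fold change was -0.14 (SE 0.05; edgeR adjusted p = 0.093). Without EGFP replicate 3, which stood apart across all genes, it was -0.21 and passed (edgeR adjusted p = 3.5e-04), and it also passed with DESeq2 (-0.15, adjusted p = 0.048) and with no filter on low counts (-0.15, edgeR adjusted p = 0.013). With a replicate block DUSP6 passed too, although same-numbered libraries did not deviate together. Over 11 alternatives the adjusted p ran from 3.5e-04 to 0.35. The authors' deposited table lists ETV4 at -0.21 (adjusted p = 0.0037) and DUSP6 at -0.15 (adjusted p = 0.048), and no other member below 0.05. DUSP6 (ENSG00000139318; hg38 chromosome 12, 89347232 to 89353271, minus strand) shares 40.5% of its exon bases with AC024909.2 on the opposite strand. The sources used here do not give whether the counting used strand. The overlapping gene was counted at 1.22 ± 0.11 CPM (SD, n = 3) in the clone with ALDH1B1.

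The other phosphatase genes went in opposite directions without passing. DUSP5, which encodes a nuclear ERK phosphatase, was at 39.5, 39.7 and 38.1 CPM with ALDH1B1 and at 32.7, 36.1 and 36.5 CPM with EGFP, a log2 difference of -0.14 (SE 0.06; edgeR adjusted p = 0.10). DUSP4, which encodes another nuclear phosphatase, was at 47.8, 48.5 and 43.5 CPM with ALDH1B1 and at 50.7, 54.3 and 49.1 CPM with EGFP, a log2 difference of 0.15 (SE 0.06; edgeR adjusted p = 0.092). Neither pair of groups overlapped. Without EGFP replicate 3 both passed in edgeR, DUSP5 at -0.17 (adjusted p = 0.033, range over 11 alternatives 0.033 to 0.36) and DUSP4 at 0.18 (adjusted p = 0.020, range 0.020 to 0.33). With a replicate block DUSP4 also passed and DUSP5 did not. SPRY4, SPRED2 and PHLDA1 were at 0.11 (SE 0.04), 0.10 (SE 0.04) and 0.09 (SE 0.04), with groups that did not overlap and edgeR adjusted p of 0.12, 0.14 and 0.18. SPRY2, ETV5 and SPRED1 differed by 0.09 (SE 0.06), 0.04 (SE 0.04) and -0.06 (SE 0.06), with overlapping groups. In all, groups did not overlap in 6 of 10 members, against 35.5% of all genes tested. The 95% intervals of the 10 members together ran from -0.32 to 0.28 on the log2 scale. The median of the members was 0.06, and that of all genes tested was 0.01.

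**Figure D2:**
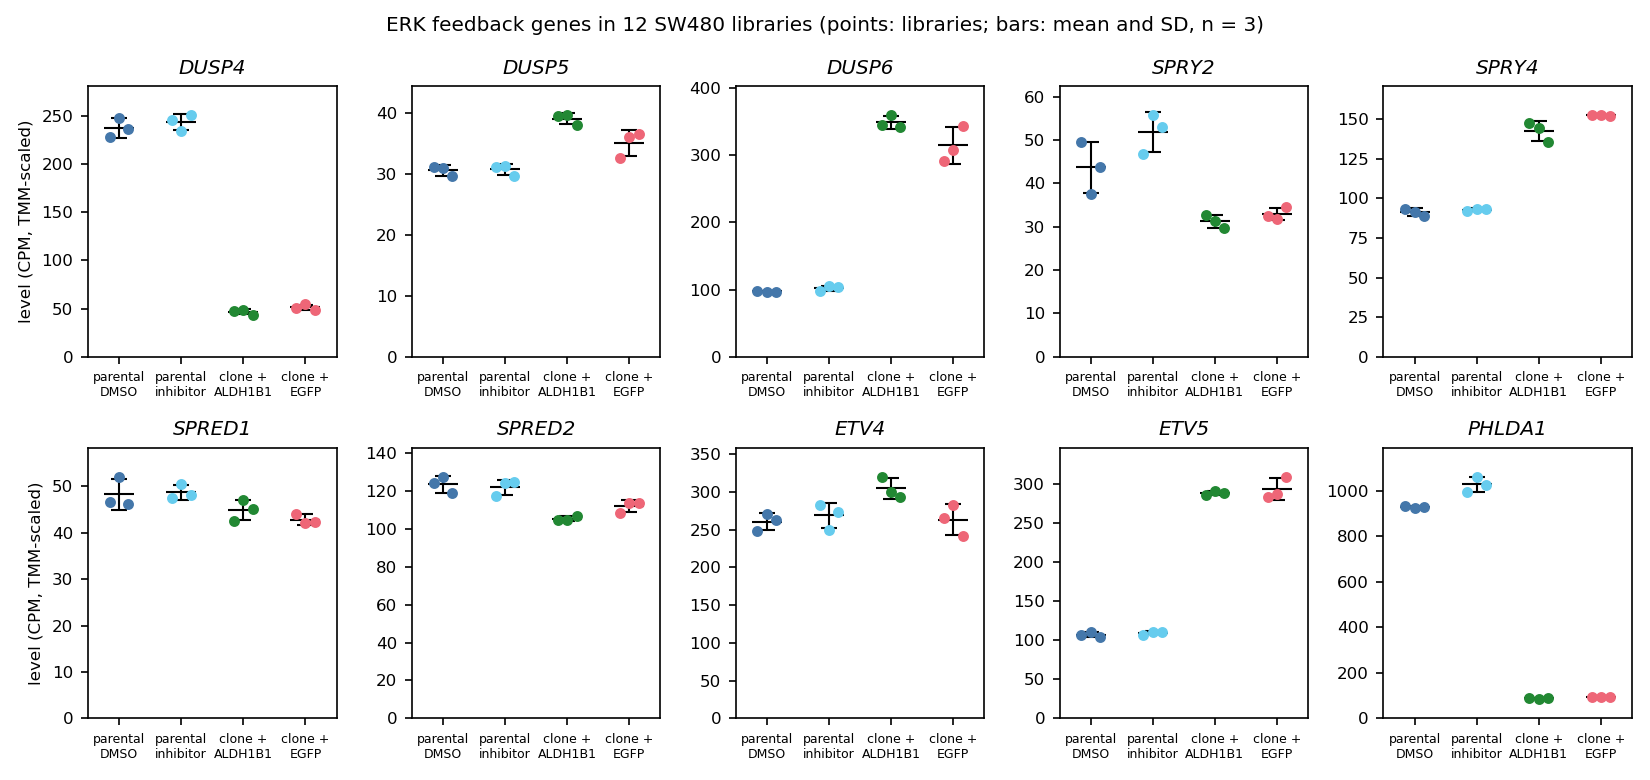
Level (CPM, linear axis from 0) of each of the 10 genes in every library; points are libraries, and bars give the mean and SD of the 3 libraries of a group. Parental and clone libraries separate widely for PHLDA1, DUSP4, DUSP6 and ETV5, while the 2 groups within the clone or within the parental line stay close, as for DUSP6 at 291 to 360.0 CPM in the clone.

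With the inhibitor in the parental line none of the 10 genes passed in edgeR, and 1 passed in DESeq2. In edgeR 2 of 10 had an unadjusted p below 0.05, as did 3523 of the 17848 genes tested. In edgeR, 3.99% of 17848 genes tested were called, 1.89% higher and 2.10% lower. PHLDA1 came nearest. Its level was 931, 924 and 928 CPM with DMSO and 993, 1026 and 1061.5 CPM with the inhibitor. All 3 inhibitor libraries were higher than every DMSO library. The log2 fold change was 0.13 (SE 0.04), or 1.096-fold, with an edgeR adjusted p of 0.085, and it was 0.13 in DESeq2, where it passed (adjusted p = 0.048, range over 11 alternatives 0.038 to 0.38). The authors' deposited table lists PHLDA1 at 0.13 with an adjusted p of 0.0501, and 0 of the 10 members below 0.05 with the inhibitor. PHLDA1 (ENSG00000139289; hg38 chromosome 12, 76025447 to 76033932, minus strand) shares 16.5% of its exon bases with other annotated genes.

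SPRY2, which encodes a Sprouty inhibitor of receptor signalling, had the largest log2 difference with the inhibitor among the 10, at 0.23 (SE 0.09; edgeR adjusted p = 0.16). It stood at 49.5, 37.6 and 43.9 CPM with DMSO and at 46.8, 52.9 and 55.7 CPM with the inhibitor. The groups overlapped, and DMSO replicate 2, which stood apart across all genes, was the lowest of the 6 libraries. Without DMSO replicate 2 the difference was 0.12 (edgeR adjusted p = 0.445). Without DMSO replicate 1 it was 0.33 and passed (edgeR adjusted p = 0.026), as it did at 0.23 with no filter on low counts (edgeR adjusted p = 0.012), within a range of 0.012 to 0.58 over 11 alternatives. The other 8 genes had log2 differences between -0.03 for SPRED2 and 0.06 for DUSP6, with overlapping groups and edgeR adjusted p of 0.56 and above. Apart from SPRY2, whose interval reached 0.42, the 95% intervals lay between -0.14 and 0.22.

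**Figure D3:**
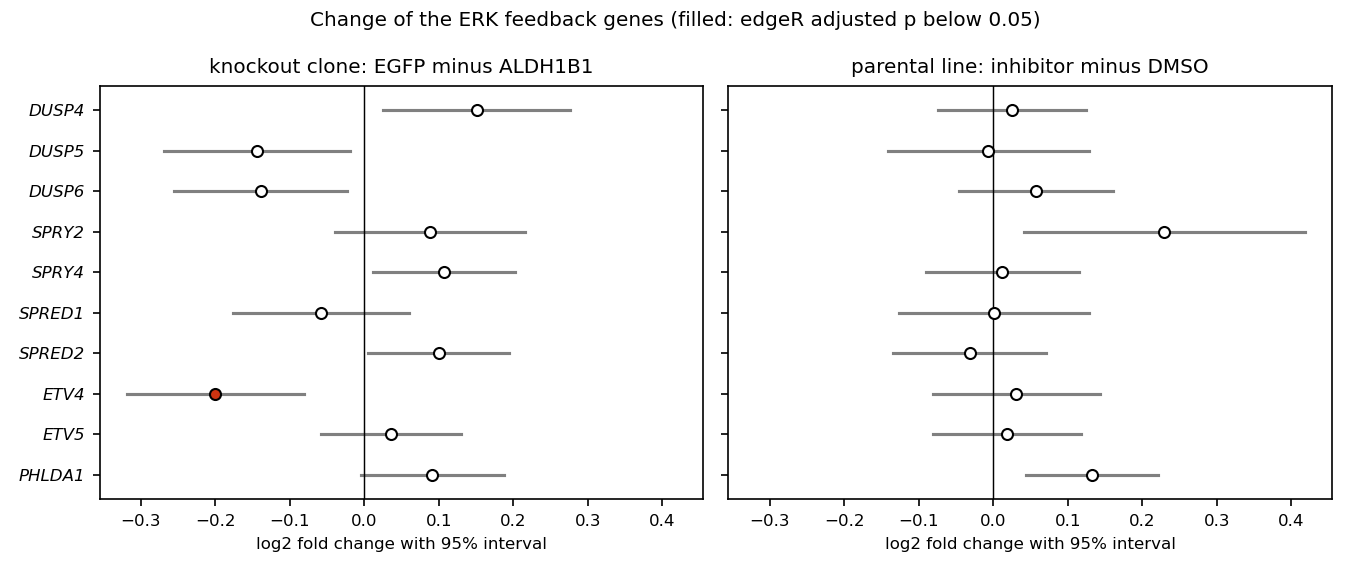
Log2 fold change of each of the 10 genes in the knockout clone (EGFP minus ALDH1B1, left) and the parental line (inhibitor minus DMSO, right); lines are 95% intervals and filled points passed an edgeR adjusted p of 0.05. Only ETV4 in the knockout clone, at -0.20, is filled.

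The difference between these effects was tested as an interaction over all 12 libraries (knockout effect minus inhibitor effect). No member passed in edgeR or in DESeq2, while 5.11% of 19075 genes tested passed in edgeR (1.90% with a positive and 3.20% with a negative difference). In edgeR 2 members had an unadjusted p below 0.05 (3740 of the 19075 genes tested did). They were ETV4, at -0.26 (SE 0.08; edgeR adjusted p = 0.079), and DUSP6, at -0.22 (SE 0.08; edgeR adjusted p = 0.10). Leaving out EGFP replicate 2 brought ETV4 to -0.28 and past the threshold (edgeR adjusted p = 0.045, range over 16 alternatives 0.045 to 0.22). Leaving out EGFP replicate 3 did so for DUSP6, at -0.29 (edgeR adjusted p = 0.020, range 0.020 to 0.27). The fall of ETV4 in the clone is therefore not shown to differ from its response to the inhibitor.

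Between the clone and the parental line with DMSO the same genes differed far more, in both directions. Both clone groups were set against the same 3 DMSO libraries, so these comparisons are not independent, and clone, construct and culture cannot be told apart in them. Of the 10 members 9 were called with ALDH1B1, 5 higher and 4 lower in the clone, and 9 with EGFP, 4 higher and 5 lower. The share called over all 19075 genes tested was 75.3% with ALDH1B1 (38.0% higher, 37.4% lower) and 75.5% with EGFP (37.8% higher, 37.7% lower). Groups did not overlap in 9 of 10 members each time, against 77.9% and 76.7% of all genes. At least 2-fold differences were found in 4 of 10 members and in 37.0% and 36.7% of all genes. Differences of this kind were thus common over the whole transcriptome, and the members' share was near the background.

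PHLDA1 had the largest difference of the 10. Its 3 libraries stood at 89.9, 85.5 and 87.7 CPM in the clone with ALDH1B1 and at 92.5, 93.6 and 92.1 CPM with EGFP, against at least 924 CPM in each parental library. Every clone library was lower than every parental one. Against DMSO the log2 fold change was -3.40 (SE 0.05; edgeR adjusted p = 3.3e-25), or 10.6-fold lower, with ALDH1B1, and -3.32 (SE 0.05; edgeR adjusted p = 4.6e-25), or 10-fold lower, with EGFP.

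The phosphatase genes diverged. DUSP4 was at 228, 248 and 236 CPM with DMSO and between 43.5 and 54.3 CPM in the 6 clone libraries, a log2 fold change of -2.35 (SE 0.06; edgeR adjusted p = 5.4e-21) with ALDH1B1 and -2.21 (SE 0.06; edgeR adjusted p = 1.6e-20) with EGFP. DUSP6 was at 98.4, 96.6 and 97.0 CPM with DMSO and between 291 and 360.0 CPM in the clone. Its log2 fold change was 1.84 (SE 0.06; edgeR adjusted p = 4.3e-19), or 3.585-fold higher, with ALDH1B1 and 1.69 (SE 0.06; edgeR adjusted p = 2.2e-18) with EGFP. DUSP5 was higher by 0.35 (SE 0.06; edgeR adjusted p = 1.7e-05) and 0.20 (SE 0.06; edgeR adjusted p = 0.0059). The 3 phosphatase genes therefore did not move as 1 group, with DUSP4 and DUSP6 on opposite sides of the parental level in all 6 clone libraries.

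Among the transcription factor genes, ETV5 was at 106, 110 and 105 CPM with DMSO and between 284 and 310 CPM in the clone. Its log2 fold change was 1.43 (SE 0.05; edgeR adjusted p = 3.0e-18) with ALDH1B1 and 1.45 (SE 0.05; edgeR adjusted p = 2.2e-18) with EGFP. ETV4, its close relative, was at 248, 271 and 263 CPM with DMSO. It was higher by only 0.22 (SE 0.06; edgeR adjusted p = 0.0016) in the clone with ALDH1B1, and with EGFP it differed by 0.01 (SE 0.06; edgeR adjusted p = 0.84). In the order of group levels ETV4 was highest in the clone with ALDH1B1, and the remaining 3 groups overlapped each other.

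**Figure D4:**
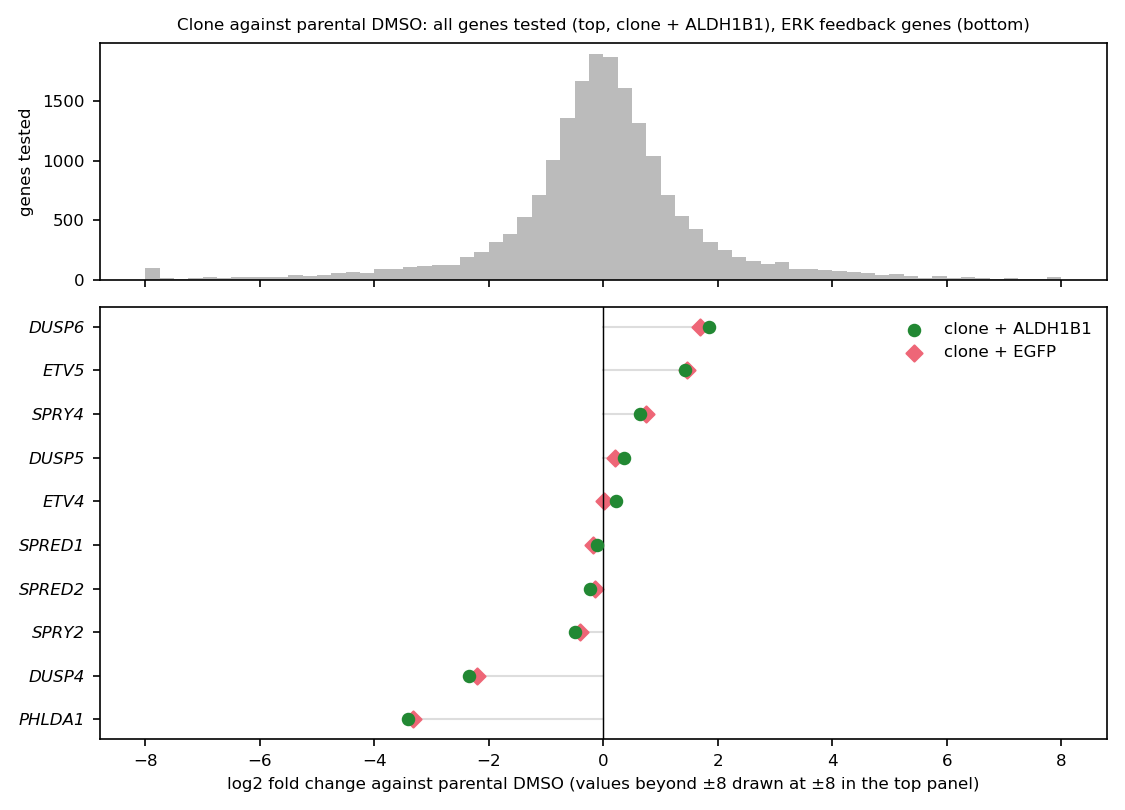
Top, histogram of the log2 fold change of all 19075 genes tested, clone with ALDH1B1 minus parental DMSO; bottom, the 10 genes in the clone with ALDH1B1 (circles) and with EGFP (diamonds) against the same DMSO libraries. The members spread to both sides, from PHLDA1 at -3.40 to DUSP6 at 1.84 with ALDH1B1.

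The 2 Sprouty genes also lay on opposite sides. SPRY4 was at 93.5, 91.2 and 88.7 CPM with DMSO, at 148, 145 and 135 CPM in the clone with ALDH1B1 and at 152.5, 152.5 and 152 CPM with EGFP. Against DMSO it was higher by 0.64 (SE 0.05; edgeR adjusted p = 1.6e-11) and 0.74 (SE 0.05; edgeR adjusted p = 1.1e-12). SPRY2 was between 29.8 and 34.6 CPM in the 6 clone libraries, below each DMSO library, and lower by 0.49 (SE 0.08; edgeR adjusted p = 1.1e-05) and 0.41 (SE 0.08; edgeR adjusted p = 9.5e-05). The RefSeq promoter table (GRCh38.p14) held windows for 6 of the 10 genes. The 250 bases before a transcript start that RefSeq lists are shown for these 2 genes because they are a pair of paralogs that differed in opposite directions. The window of SPRY2 is the one furthest upstream of 3 in the table, chr13:80341127-80341376 on the minus strand, and lies upstream of the deposited span of the gene (80335976 to 80340951). That of SPRY4 is chr5:142324248-142324497 on the minus strand, and lies inside the deposited span (142310427 to 142326455), whose own start is further upstream and is not shown. Capitals mark the motifs searched on both strands, the ETS core CCGGAA, the PEA3-type ETS site AGGAAG and the AP-1 site TGANTCA, and no marked motifs overlap.
SPRY2: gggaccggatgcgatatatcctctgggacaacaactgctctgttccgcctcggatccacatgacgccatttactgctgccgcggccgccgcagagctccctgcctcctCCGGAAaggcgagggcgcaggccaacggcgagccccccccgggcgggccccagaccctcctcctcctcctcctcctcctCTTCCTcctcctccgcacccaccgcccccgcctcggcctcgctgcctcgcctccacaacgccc
SPRY4: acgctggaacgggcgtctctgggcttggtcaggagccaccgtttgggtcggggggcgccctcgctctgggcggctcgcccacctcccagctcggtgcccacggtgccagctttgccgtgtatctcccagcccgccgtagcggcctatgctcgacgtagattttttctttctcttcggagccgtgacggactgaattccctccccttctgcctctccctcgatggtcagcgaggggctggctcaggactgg
SPRY2 held 1 CCGGAA and 1 AGGAAG, and SPRY4 held none of the 3 motifs. Of all 35116 windows of this length, 14.5% held CCGGAA, 28.7% AGGAAG and 6.6% TGANTCA. In the SPRY4 window 170 bases lie in an exon of a processed transcript of SPRY4, and the SPRY2 window lies outside annotated exons. These matches describe the sequence and were not tested as binding sites.

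The SPRED genes, whose products bring neurofibromin to RAS, differed little. SPRED2 was at 124, 128 and 119 CPM with DMSO, at 105, 104.5 and 107 CPM in the clone with ALDH1B1 and at 109, 114 and 114 CPM with EGFP. It was lower by 0.23 (SE 0.05; edgeR adjusted p = 1.9e-04) and 0.14 (SE 0.05; edgeR adjusted p = 0.012). SPRED1 overlapped between the clone with ALDH1B1 and DMSO, at -0.10 (SE 0.06; edgeR adjusted p = 0.13), and was lower with EGFP, at -0.17 (SE 0.06; edgeR adjusted p = 0.015). The latter call ended without EGFP replicate 2 (-0.15, edgeR adjusted p = 0.058, range over 11 alternatives 0.0075 to 0.058).

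Epithelial markers moved with the same split of libraries. Of 10 colon epithelial markers tested in the clone with ALDH1B1, 4 were higher and 5 lower than with DMSO, and with EGFP 2 were higher and 7 lower, where 75.3% and 75.5% of all genes were called. With ALDH1B1 all 5 lower ones were at least 2-fold lower, and none of the higher ones reached 2-fold. With EGFP 6 were at least 2-fold lower and 1 was at least 2-fold higher. From DMSO to the clone with ALDH1B1, EPCAM went from 767.1 to 134.7 CPM, CDH1 from 39.0 to 4.89 CPM and CDH17 from 29.1 to 0.59 CPM (group means). VIL1, which encodes a brush border actin-binding protein, went from 343.8 ± 7.2 to 0.15 ± 0.08 CPM (SD, n = 3), while KRT8, KRT18 and KRT19 stayed above 628 CPM in every group mean. Of 8 fibroblast markers listed, 3 were tested, and all 3 were higher in the clone. The highest was COL1A1, at 15.3 ± 0.42 CPM (SD, n = 3) with ALDH1B1. COL1A2 had 1, 0 and 4 reads with DMSO and 21, 23 and 17 reads with EGFP. It passed the filter on low counts only through the clone, so its direction was set in advance. THY1, COL3A1 and DCN, which were not tested, had group means of at most 0.201, 0.035 and 0.066 CPM. Of 2 blood and endothelial markers tested, CD14 was higher in the clone, at 1.04 ± 0.11 with ALDH1B1 against 0.30 ± 0.11 CPM with DMSO (SD, n = 3). VWF was not called, at 1.04 ± 0.25 against 1.25 ± 0.16 CPM (SD, n = 3). CD3E and PECAM1, which were not tested, were near 0 throughout. The part of these differences in the values of the feedback genes was not tested. In the knockout comparison 3 of 9 epithelial markers tested rose and 3 fell. Of 3 fibroblast markers tested 2 rose, where 17.6% of all genes were called. KRT19 was lower with EGFP by 0.46 (SE 0.04), KRT8 by 0.23 (SE 0.04), and CDX2 and PDGFRB were higher by 0.31 (SE 0.06) and 0.93 (SE 0.12), with edgeR adjusted p of 0.0030 or below. KRT18 also fell. VIL1, GPA33 and COL1A2 rose, to only 0.47, 0.44 and 0.58 CPM with EGFP. COL1A1 did not pass (-0.04, edgeR adjusted p = 0.76). The part of these changes in the fall of ETV4 was not tested either. With the inhibitor 1 of 11 epithelial markers tested was called, VIL1, higher by 0.20 (edgeR adjusted p = 0.020), and the call ended without DMSO replicate 2 or 3, inhibitor replicate 3 or the unnumbered inhibitor library (range over 11 alternatives 0.0011 to 0.16).

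Further genes of the pathway were read from 4 lists, which were also chosen with earlier results of these data known. Of 23 genes of the cascade from adaptor to ERK and its RSK kinases, 1 rose and none fell in the knockout comparison, where 17.6% of all genes were called. It was SOS2, which encodes an activator of RAS, at 0.22 (SE 0.06; edgeR adjusted p = 0.030), and the call ended without any 1 of 5 of the 6 libraries (without EGFP replicate 2 it held; range over 11 alternatives 0.019 to 0.13). With the inhibitor none of the 23 passed in edgeR, against 3.99% of all genes, and 1 passed in DESeq2. In edgeR 5 of the 23 had an unadjusted p below 0.05, as did 3523 of the 17848 genes tested. Their medians were 0.00 and 0.01. In the interaction test 2 of the 23 were called, both negative, and 2 in DESeq2, against 5.11% of all genes in edgeR. They were GRB2, which encodes an adaptor between receptors and SOS, at -0.32 (SE 0.07; edgeR adjusted p = 0.011, range over 16 alternatives 0.00082 to 0.047), and RPS6KA1, which encodes an RSK kinase, at -0.30 (SE 0.08; edgeR adjusted p = 0.034). The RPS6KA1 call ended under 9 of 16 alternatives, 8 of them with 1 library left out (adjusted p of 0.015 to 0.12 over the 16). Both were named after their values were seen. Of 7 other MAP kinase phosphatase genes, 1 was called in the knockout comparison and 1 with the inhibitor, against 17.6% and 3.99% of all genes. DUSP7 fell in the knockout comparison, from 33.8 ± 1.0 to 27.8 ± 1.8 CPM (SD, n = 3; -0.27, SE 0.06; edgeR adjusted p = 0.0095). DUSP2 rose with the inhibitor, from 37.6 ± 1.1 to 45.3 ± 1.3 CPM (SD, n = 3; 0.25, SE 0.06; edgeR adjusted p = 0.024), a call that ended without DMSO replicate 2 or 3, and without inhibitor replicate 3 or the unnumbered inhibitor library (edgeR adjusted p of 0.072 to 0.11; range over 11 alternatives 0.0063 to 0.20). Of 9 relatives and other inhibitors, 1 was called in the knockout comparison, against 17.6% of all genes. It was ETV1, the third gene of the ETV4 and ETV5 subfamily, which rose from 13.2 ± 0.31 to 17.8 ± 1.4 CPM (SD, n = 3; 0.44, SE 0.08; edgeR adjusted p = 0.0017). None of the 9 passed with the inhibitor in edgeR, with 3 at an unadjusted p below 0.05 (3523 of the 17848 genes tested were), and 2 were called by DESeq2. In the knockout comparison the 3 ETV genes thus gave different results, as ETV4 fell, ETV1 rose and ETV5 did not pass.

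Of 20 other genes that ERK is known to induce, 1 rose and 4 fell in the knockout comparison, and 2 rose and 3 fell with the inhibitor. The calls of either direction, 5 of 20 each time, compare with 17.6% and 3.99% of all genes. FOSL1, which encodes a subunit of the AP-1 transcription factor, fell in both comparisons. In the clone it was at 87.7, 97.6 and 81.8 CPM with ALDH1B1 and at 55.6, 57.4 and 61.6 CPM with EGFP. Its log2 fold change was -0.60 (SE 0.06; edgeR adjusted p = 3.1e-05) there and -0.29 (SE 0.07; edgeR adjusted p = 0.040) with the inhibitor. The latter call ended without DMSO replicate 2 (-0.23) or 3 (-0.28), inhibitor replicate 3 (-0.22) or the unnumbered inhibitor library (-0.31), with edgeR adjusted p of 0.072 to 0.177 and a range over 11 alternatives of 7.2e-05 to 0.177. UPP1, the gene of uridine phosphorylase, fell by 0.31 (SE 0.06; edgeR adjusted p = 0.0036) and 0.64 (SE 0.12; edgeR adjusted p = 0.0073). PLAUR, which encodes the urokinase receptor, fell in the knockout comparison by 0.32 (SE 0.06; edgeR adjusted p = 0.0034). With the inhibitor the AP-1 gene JUNB rose by 0.34 (SE 0.05; edgeR adjusted p = 0.0025), from 62.3 to 79.7 CPM in the group means, and EREG, which encodes an EGF receptor ligand, fell by 0.33 (SE 0.06; edgeR adjusted p = 0.0050). EREG reached 244 ± 18.7 CPM with DMSO but 0.22 ± 0.19 CPM in the clone with ALDH1B1 (SD, n = 3), from 2 to 16 reads per library. The list medians were -0.10 and -0.03, against 0.01 and 0.00 for all genes tested. The feedback genes and these other ERK-induced genes thus gave different counts in the same libraries, a difference that was not itself tested.

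**Figure D5:**
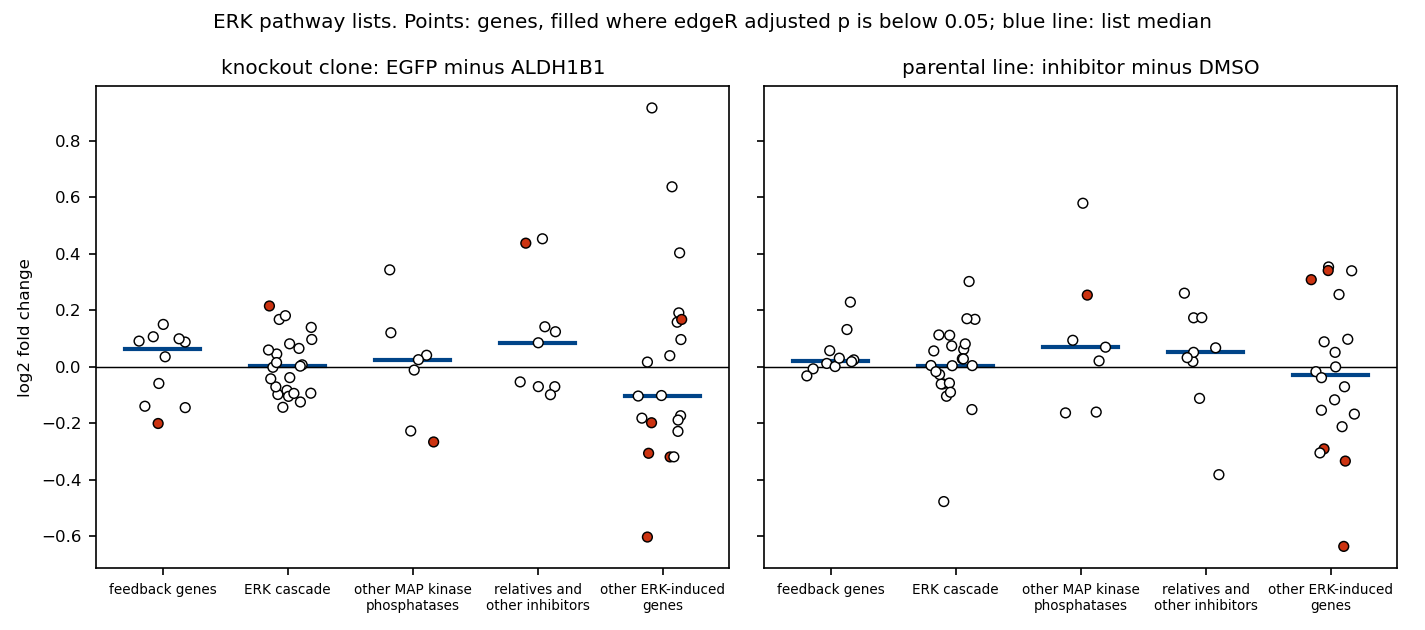
Log2 fold change of every tested gene of 5 ERK pathway lists in the knockout clone (EGFP minus ALDH1B1, left) and the parental line (inhibitor minus DMSO, right); filled points passed an edgeR adjusted p of 0.05 and the blue line is the list median. The 10 feedback genes lie between -0.20 and 0.23, with 1 filled point at left and none at right.

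Across the 12 libraries, the genes whose log2 CPM was most like that of DUSP6 among 11444 genes with a mean of at least 5 CPM were MCM4, CORO1C, MT1A, SEPTIN11 and RAB7A, with Pearson r of 0.999 each. The libraries fall into clone and parental clusters, and r above 0.9 was reached by 3693 genes, so the measure mostly reads which genes are higher in the clone. Within the 6 clone libraries the 5 genes had r of 0.89 to 0.96 with DUSP6, and within the 6 parental libraries 0.66 to 0.92. The 5 were picked by their r over these same 12 libraries, which favours high values within each cluster too. No background within a cluster was computed, so these r values only describe the 5 genes. The deposited tables give the symbol of SEPTIN11 as a date, and it was named here from its identifier ENSG00000138758.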

How the data were processed

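RNA enriched with oligo(dT) was sequenced from 12 SW480 libraries, 3 in each of 4 groups, per the labels' protocols. Use of fastp, STAR and DESeq2 with the hg38 build is recorded in the submitters' processing notes. The authors deposited 1 table per comparison with raw read counts per gene, a log2 fold change and p-values; the counts were used for all tests, and 24 per-sample columns of other values were not used. Each listed gene had at least 2 reads over its table's 6 libraries. Group and replicate came from column names and labels; 1 inhibitor column has no number.

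Counts were tested with edgeR 4.0.16 (R 4.3.3; filterByExpr, TMM scaling, quasi-likelihood test), with Benjamini-Hochberg adjustment over all genes tested and a threshold of 0.05. Each table was fitted on its own, and the interaction and the clone against the parental line in 1 fit over the 12 libraries and the 26814 genes in both tables. The steps were tested on simulated data. CPM is TMM-scaled over the 12 libraries, and RPKM divides it by the deposited gene length. The submitters' series text gives replicates as biological. Same-numbered libraries did not deviate together, so no block was used. Alternatives were relative log expression factors, no filter, DESeq2 1.42.0, a replicate block, another set of libraries in the fit, and each library left out. The unnumbered inhibitor library had its own block level, so the blocked inhibitor contrast rested on replicates 1 and 3 of each group. Named beside the 10 genes and ALDH1B1 were, from each other list, the up to 3 largest changes past 0.05 whose mean reached 5 CPM over the libraries compared, and the 5 genes most like DUSP6; PLAUR, UPP1 and FOSL1 came from this rule, and FOSL1 with the inhibitor and the genes named for the interaction were added after their values were seen. The members and lists were chosen with earlier results of these data known. Counting error is separate from the spread between libraries, which the tests measure.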

Additional observations from a re-analysis of the deposited data

Results flagged for a closer look

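None of the 10 feedback genes had effects in the clone and the parental line that differed past the threshold of the interaction test. Of the other genes in the lists, and ALDH1B1, 8 did, by the edgeR interaction test with Benjamini-Hochberg adjustment (knockout effect minus inhibitor effect, log2). Over all 19075 genes tested 5.11% did. By list, 2 of 23 cascade genes and 1 of 20 other ERK-induced genes passed. None of the other phosphatase genes or of the relatives and other inhibitors passed. Of 10 epithelial markers tested, 2 had a positive and 2 a negative difference. JUNB, an AP-1 gene that ERK induces, differed by -0.55 (SE 0.11; adjusted p = 0.0044). It was at 26.3, 25.4 and 24.0 CPM in the clone with ALDH1B1 and at 23.2, 24.6 and 18.5 CPM with EGFP, and at 65.0, 61.3 and 60.5 CPM with DMSO and 79.5, 77.1 and 82.5 CPM with the inhibitor. The groups overlapped in the clone and did not overlap in the parental line. ALDH1B1 itself differed by -2.48 (adjusted p = 2.95e-15), the gene that the construct carries. The cascade genes GRB2 and RPS6KA1 differed by -0.32 (adjusted p = 0.011) and -0.30 (adjusted p = 0.034). GRB2 was at 223, 216 and 211 CPM in the clone with ALDH1B1 and at 200.2, 204 and 187 CPM with EGFP, and at 132, 139 and 137 CPM with DMSO and 147, 156 and 159 CPM with the inhibitor. It was lower with EGFP and higher with the inhibitor in every library, but neither effect passed on its own (edgeR adjusted p of 0.074 and 0.058). The epithelial markers KRT19, KRT8, CDH1 and VIL1 differed by -0.62 (adjusted p = 1.6e-05), -0.35 (adjusted p = 0.0017), 0.42 (adjusted p = 0.048) and 1.5 (adjusted p = 0.011), the last with 0.15 and 0.47 CPM in the clone groups. The CDH1 call ended under 11 of 16 alternatives, and that of VIL1 without ALDH1B1 replicate 2 (adjusted p = 0.13).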

How the results depend on the processing

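Of the 10 genes, values under the alternatives kept their direction and side of the threshold in 99 of 110 cases in the knockout comparison, 95 of 110 with the inhibitor, 150 of 160 for the interaction, and 110 of 110 and 105 of 110 for the clone against DMSO with ALDH1B1 and EGFP. The sign changed in 24 cases, all of them values near 0 that were not called (lowest adjusted p = 0.678). With 1 library left out, ETV5 ran from -0.0044 to 0.058 in the knockout comparison and from -0.042 to 0.040 in the interaction, ETV4 from -0.029 to 0.051 in the clone with EGFP against DMSO, and, with the inhibitor, SPRED1 from -0.030 to 0.048, DUSP5 from -0.029 to 0.022, SPRY4 from -0.0063 to 0.036, ETV4 from -0.012 to 0.078 and ALDH1B1 from -0.042 to 0.052. SPRED1 with the inhibitor was -0.0018 with relative log expression factors and -0.0001 in DESeq2, DUSP5 was 0.0071 in 1 fit over all libraries and 0.025 with the replicate block, ETV5 in the interaction was 0.0048 with relative log expression factors and 0.016 with no filter, and ETV4 with EGFP against DMSO was -0.011 with no filter. In the knockout comparison 1 member was called; 2 were with no filter on low counts, 2 with DESeq2, and 0 to 4 with 1 library left out (1371 to 3951 genes in all, against 3059). The 4 calls were made without EGFP replicate 3, and none without ALDH1B1 replicate 1 or 2 or EGFP replicate 1. With the inhibitor 2 were called with no filter (1402 genes in all, against 712), 1 with DESeq2 and 0 to 1 with a library left out (171 to 832 genes). For the interaction it was 0 to 1 (392 to 1003 genes), and for the clone against DMSO 9 in each setting with ALDH1B1 (13808 to 14210 genes) and 8 to 9 with EGFP (13861 to 14235 genes). The cause of these changes was not tested. Same-numbered libraries did not pair (r of deviations -0.027 to -0.008 in the clone, and 0.017 and -0.011 in the parental line). With a replicate block, 3 members and 3563 genes were called in the knockout comparison. The members were ETV4, DUSP6 at an edgeR adjusted p of 0.049 and DUSP4 at 0.047, whose ranges stand in the report. With the inhibitor 0 members and 548 genes were called, and the calls of DUSP2 and VIL1 ended. The unnumbered inhibitor library had its own block level there, and DMSO replicate 2 was also alone in its block. That contrast therefore rested on replicates 1 and 3 of each group. An effect of the block cannot be told from the loss of libraries in it. The upper ends of the adjusted p ranges of DUSP2 and VIL1 came from this fit. With 3 libraries a group, differences under about the intervals given cannot be resolved.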
